A study of Mus musculus with 72 samples.

Results

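Fzd1 was switched on in mature olfactory sensory neurons of mouse pups, and the olfactory epithelium, which lines the nose and senses odours, was compared at postnatal day 7 (P7) with that of pups of the same genotype in which doxycycline (DOX) kept the transgene off. Of the 72 libraries of the series, the 6 from P7 pups that carry Omp-IRES-tTA together with tetO-Fzd1-IRES-tdTomato were compared, 3 without DOX (on) and 3 whose titles give DOX from P0 (off). In these mice the Omp promoter drives tTA, an activator that DOX blocks, and tTA drives Fzd1 together with the red fluorescent protein tdTomato, so effects of Fzd1 and of tdTomato cannot be told apart here. The titles give the tetO-Fzd1 transgene as het, and DOX was given in the off group alone, so the transgene and DOX cannot be told apart within this comparison. For that reason values are set beside P7 libraries of mice with Omp-IRES-tTA alone, 2 without DOX and 3 with DOX from P0, and beside the same on and off comparison in other libraries at P10 (3 against 3) and P14 (2 against 3). The labels do not say that libraries of a group came from separate animals. The p-values therefore rest on the spread among libraries, which may be technical. For the gene tests that spread was estimated within groups over all 72 libraries of the series. In bulk tissue, fewer cells of a type and less RNA per cell cannot be told apart.

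Frizzled proteins such as Fzd1 are 7-pass membrane receptors for Wnt ligands, and they act with the co-receptors Lrp5 and Lrp6 on beta-catenin, or with Ror, Ryk and planar polarity proteins independently of it. Olfactory sensory neurons are made from basal stem cells throughout life, and each mature neuron chooses an odorant receptor gene, detects odours through a cyclic AMP cascade in its cilia and sends an axon to a glomerulus of the olfactory bulb. Receptor identity and neural activity both set the adhesion and guidance molecules that sort these axons.

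The 6 libraries held 2.23 M to 5.21 M gene counts each, out of 13.4 M to 17.8 M reads. On replicate 1 had the lowest count and stood apart in its makeup: 13 predicted genes that resemble satellite repeats took 43.5, 10.6 and 16.4% of gene counts in the on libraries and 20.7, 5.84 and 8.04% in the off libraries. None of the 13 was called, at a median log2 fold change of 1.32. The title ID of on replicate 1 belongs to the number series of both control libraries without DOX, while the other 5 share another series and the control DOX libraries yet another. Y-linked genes summed to 0.237 to 250.1 CPM (gene counts scaled to library size, with TMM factors) in the on group and 0.386 to 265 CPM in the off group, so each group held libraries with and without a Y chromosome. Among the control libraries, the library labelled control DOX replicate 1 had Fzd1 at 3.45 CPM, beside 37.6 and 31.5 CPM in control DOX replicates 2 and 3. The cause of this low level was not tested.

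Fzd1 itself (ENSMUSG00000044674, chr5:4753839-4758035 in mm10, minus strand) was far higher with the transgene on. It had 728, 713 and 615 CPM in the 3 on libraries and 34, 33.1 and 22 CPM in the 3 off libraries, beside 25.4 and 32.2 CPM in the control libraries without DOX. All 3 on libraries lay above all off and control libraries, and off replicates 1 and 2 lay among the controls. Off replicate 3 lay below all controls but the library labelled control DOX replicate 1. The means were 686 ± 61.7 CPM (SD, n = 3) and 29.7 ± 6.69 CPM (SD, n = 3), a ratio of 23.1. The log2 fold change was 4.53 (SE 0.47, adjusted p = 1.82e-09), where each adjusted p comes from the quasi-likelihood test of edgeR, corrected over 22144 genes by Benjamini and Hochberg's method, and a gene below 0.05 is called higher or lower. An exact 2-sided permutation test of the level gave p = 0.1, the smallest that 3 libraries against 3 allow. Reads from the transgene and from the endogenous gene were not separated. On the per-length TPM scale the on libraries had 38.9, 74.5 and 53.9.

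Omp, whose promoter drives the activator and which marks mature neurons, had 74.7, 17.1 and 13.8 CPM in the on libraries and 24.5, 29.4 and 35.1 CPM in the off libraries. On replicate 1 lay above and the other on libraries below all 3 off libraries, so the groups overlapped. The log2 fold change was 0.11 (SE 0.39, adjusted p = 1.0), and it turned to −0.96 without on replicate 1, to −0.03 without off replicate 1, and to −0.47 and −0.58 on log2(TPM + 1) and log2(TPM + 0.1), none of them called. These levels were near those of the control libraries without DOX (30 and 30.1 CPM) and far below those of the control DOX libraries (673, 412 and 554 CPM), so the mature neuron marker was low in both groups compared. Other markers of these neurons, such as Gnal and Cnga2 below, were well detected.

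**Figure D1:**
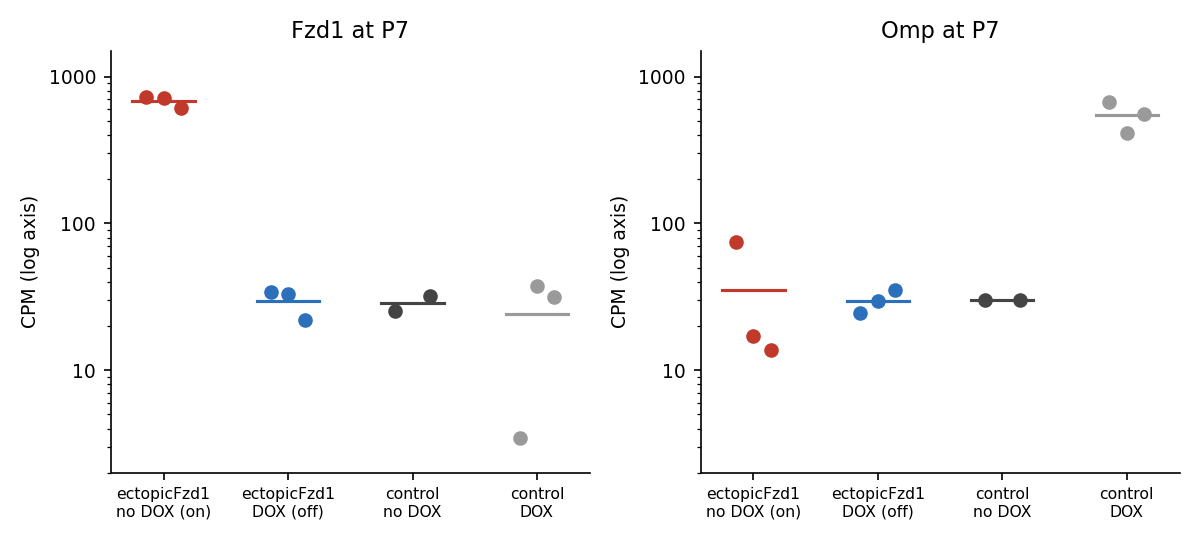
Level of Fzd1 and of Omp in each of the 11 P7 libraries, in CPM on a log axis, by group (points are libraries, bars are group means). The 3 on libraries sit between 615 and 728 CPM of Fzd1 and the off libraries between 22 and 34, while for Omp the on and off groups overlap and the control DOX libraries sit highest, between 412 and 673.

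Among the genes called, the change beyond Fzd1 was almost entirely a fall. Of 22144 genes tested, 124 were called (0.56%), of which 119 were lower (0.537%) and 5 higher (0.0226%), and 1476 had an unadjusted p below 0.05. The lower genes fell by 0.61 to 2.93 on the log2 scale with a median of −1.07, while the median over all genes was 0.01. The call used these same 6 libraries, so a separation of the groups in them is no further support. In 118 of the 119 every on library lay below every off library, as in 7.26% of all genes tested. The exception was Olfr533, named after its values were seen, with 7.53, 2.13 and 1.53 CPM on and 9.96, 6.02 and 9.26 CPM off. Of the lower genes, 31 carry odorant receptor symbols, 3 of them with the pseudogene suffix -ps1, and 88 do not. They lay on 20 chromosomes, 114 were annotated as protein coding, and 19 overlapped an exon of another gene, whose reads cannot be told apart where counting did not use strand. The number called rested on the libraries: without on replicate 1, 2 or 3 it was 74, 26 or 30, and without off replicate 2 or 3 it was 82 or 23. Of the 36 named genes called, 5 (Fzd1, Olfr536, Fam217a, Galnt15 and Necab1) were called whichever of the 6 libraries was left out.

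**Figure D2:**
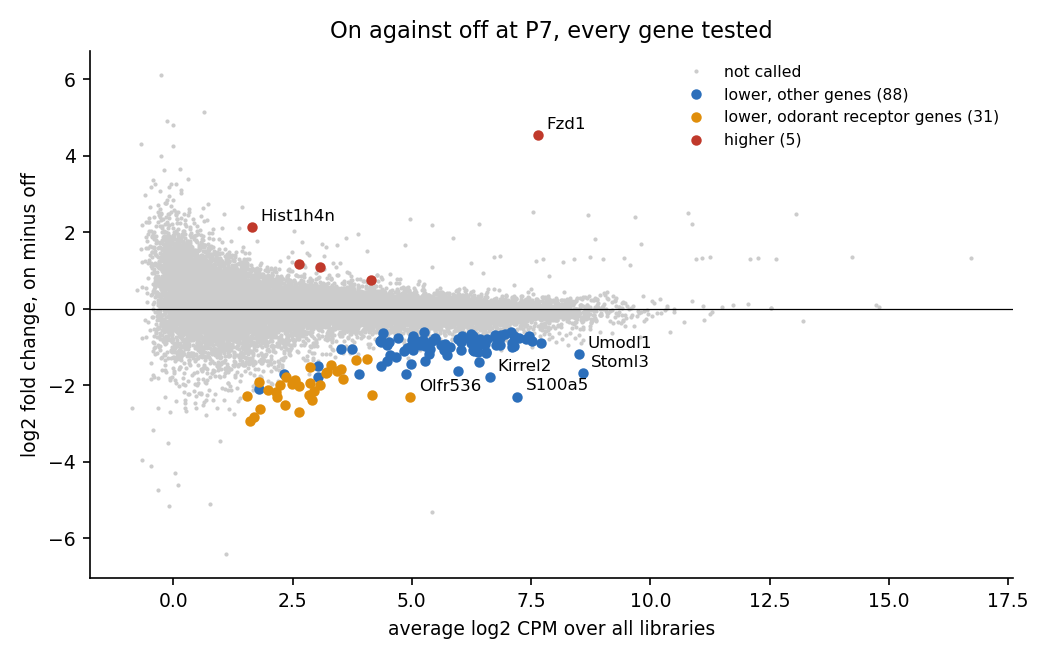
Log2 fold change, on minus off at P7, of each of the 22144 genes tested against its average log2 CPM over all libraries. Called genes are marked, and apart from Fzd1 at 4.53 nearly all of them lie below 0, with odorant receptor genes at low levels and other genes across the range.

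Of the 119 lower genes, 8 were on the list of mature olfactory sensory neurons. Of 20 markers and signalling genes of these cells, 8 were lower (40.0% beside 0.537% of all genes) and none higher, with a median log2 fold change of −0.86. In 15 of the 20 (75% beside 7.26% of all genes) all on libraries lay below all off libraries. Their summed level was 1935, 1582 and 1758 CPM in the on libraries and 2564, 2731 and 3544 CPM in the off libraries, without overlap. The count was sensitive to single libraries: it was 3, 0 and 1 without on replicate 1, 2 and 3 and 2 without off replicate 3, with medians from −1.03 to −0.62.

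In the odour transduction cascade, 2 of the 3 subunits of the cation channel and the chloride channel were lower. Cnga4, a subunit of the cyclic nucleotide-gated cation channel, had 40.2, 26.8 and 27.9 CPM on and 74.8, 74.2 and 90.4 CPM off (log2 fold change −1.38, SE 0.26, adjusted p = 0.00303). Cngb1, the channel's modulatory subunit, had 38.9, 36.7 and 29.5 CPM on and 53.4, 60.1 and 80.8 CPM off (log2 fold change −0.90, SE 0.23, adjusted p = 0.0467). Cnga2, its principal subunit, had 220.2, 172 and 196 CPM on and 286, 267 and 361 CPM off and was not called (log2 fold change −0.64, SE 0.24, adjusted p = 0.439), although its groups did not overlap. In all 3 subunits every on library lay below every off library. Ano2, the calcium-activated chloride channel that amplifies the current, had 77.8, 55.9 and 73 CPM on and 120.3, 117 and 166 CPM off (log2 fold change −0.98, SE 0.24, adjusted p = 0.0301). Upstream of the channels, none of the cyclase, G protein and exchange factor genes given here was called. Adcy3, the adenylyl cyclase, had 79.7, 64.4 and 66.6 CPM on and 111, 140.3 and 163 CPM off (log2 fold change −0.99, SE 0.27, adjusted p = 0.078). Gnal, the G protein alpha subunit of olfactory cilia, had 309, 281 and 308 CPM on and 359, 440.2 and 589 CPM off (log2 fold change −0.63, SE 0.23, adjusted p = 0.396). The gamma subunit gene Gng13 had a log2 fold change of −1.07 (adjusted p = 0.10) and the exchange factor gene Ric8b one of −0.57 (adjusted p = 0.302). In each of these 4 genes the on libraries lay below the off libraries without overlap. Pde1c, a calmodulin-dependent phosphodiesterase that breaks down cyclic AMP, had 86.6, 96.4 and 97.9 CPM on and 121, 149 and 189 CPM off (log2 fold change −0.71, SE 0.17, adjusted p = 0.0247). By contrast Rtp1, a chaperone that brings odorant receptors to the membrane, had 291, 231 and 291 CPM on and 268, 260.0 and 329 CPM off, with groups that overlapped (log2 fold change −0.08, SE 0.23, adjusted p = 1.0).

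Stoml3, a stomatin-like protein of the sensory cilia, was among the called genes of this list. It (chr3:53488653-53508502, plus strand) had 120.5, 78.7 and 101 CPM on and 285, 285 and 379.7 CPM off, beside 417 and 392.03 CPM in control. Every off and control library had over 2 times the level of every on library (log2 fold change −1.68, SE 0.31, adjusted p = 0.00221). Umodl1, which encodes a zona pellucida domain protein of these neurons, had 137, 130.3 and 136 CPM on and 257, 277 and 376 CPM off (log2 fold change −1.17, SE 0.27, adjusted p = 0.0207). Slc17a6, the vesicular glutamate transporter of their synapses, had 45.2, 43.8 and 47.6 CPM on and 80.9, 81.9 and 97.2 CPM off (log2 fold change −0.93, SE 0.21, adjusted p = 0.0174). The 3 on libraries lay closer together than the off libraries in both. Kcnmb3, an accessory subunit of calcium-activated potassium channels, had 5.02, 4.03 and 3.99 CPM on and 14.8, 11.3 and 15.2 CPM off (log2 fold change −1.7, SE 0.34, adjusted p = 0.00566).

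The largest falls outside the odorant receptors were led by S100a5 and Kirrel2, whose transcripts depend on odour-evoked activity in these neurons. S100a5 (chr3:90608523-90611780, plus strand), a calcium-binding protein, had 26.4, 11.8 and 18.4 CPM on and 92.9, 77.3 and 90.8 CPM off, beside 125 and 140.2 CPM in control. All 3 on libraries lay well below all off and control libraries (log2 fold change −2.29, SE 0.49, adjusted p = 0.0105). Its adjusted p ran from 0.0165 to 0.182 when libraries were left out in turn. Kirrel2 (chr7:30447534-30457690, minus strand), an adhesion molecule by which axons of like activity are sorted, had 28.2, 23 and 16.3 CPM on and 76.9, 68.8 and 79.8 CPM off (log2 fold change −1.78, SE 0.35, adjusted p = 0.00358). These were the 2 lower genes of 13 on the list of activity-dependent genes (15.4% beside 0.537% of all genes), whose summed level was 221, 241 and 205 CPM on and 395, 381 and 402 CPM off. The median of the 13 was −0.15, and in 4 of them (30.8% beside 7.26% of all genes) the on libraries lay below the off libraries.

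The 15 largest falls were taken from called genes whose groups did not overlap, without predicted or clone names. Genes such as Gm4869 (log2 fold change −1.72) were therefore left out. The other genes among the 15 had smaller changes than S100a5 and Kirrel2. Scn4b, a beta subunit of voltage-gated sodium channels, had 24.5, 14.9 and 12.3 CPM on and 41.9, 47 and 61.1 CPM off (log2 fold change −1.63, SE 0.32, adjusted p = 0.00446). Necab1 (chr4:14952245-15149794, minus strand), a neuronal calcium-binding protein whose exons overlap an antisense gene, had 15.1, 16.1 and 15 CPM on and 33.4, 35.4 and 42.4 CPM off (log2 fold change −1.26, SE 0.21, adjusted p = 9.21e-04). Both groups of Necab1 were tight and did not overlap. Scgn, the calcium sensor secretagogin, had 13.8, 7.11 and 9.51 CPM on and 31.7, 23 and 25.1 CPM off (log2 fold change −1.48, SE 0.32, adjusted p = 0.00942), and Cabp4, another calcium-binding protein, fell by 1.69 (adjusted p = 0.00853). Pcsk1, a protease that processes peptide hormones, had 3.76, 3.55 and 2.46 CPM on and 10.2, 9.04 and 7.91 CPM off (log2 fold change −1.49, SE 0.35, adjusted p = 0.0242). The smallest adjusted p outside Fzd1 and the receptors belonged to Fam217a (chr13:34909960-34924310, minus strand), with 11.9, 12.8 and 12.6 CPM on and 29.1, 32.3 and 40.5 CPM off (log2 fold change −1.44, SE 0.21, adjusted p = 2.58e-05). Galnt15, an enzyme that starts mucin-type glycosylation, had 20.1, 16.3 and 14.7 CPM on and 32.2, 43.2 and 53.4 CPM off (log2 fold change −1.37, SE 0.22, adjusted p = 2.60e-04). The orphan receptor gene Gpr162 (−1.35), the neural gene Brinp2 (−1.21) and the kinase gene Dyrk4 (−1.2) completed the 15.

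**Figure D3:**
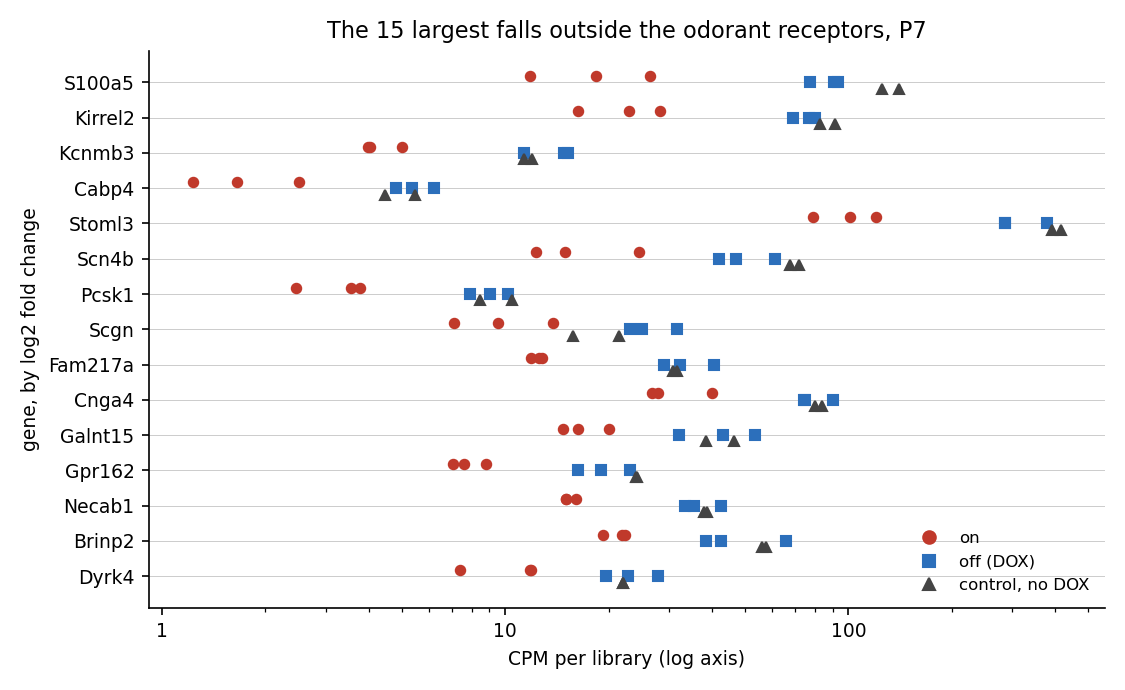
CPM per library on a log axis of the 15 largest falls outside the odorant receptors, without genes of predicted or clone names. The 15 genes are ordered by log2 fold change from −2.29 (S100a5) to −1.20 (Dyrk4). Points are the 3 on, 3 off and 2 control libraries without DOX. In each of the 15 genes the on points lie left of all off points, which was a condition for choosing them.

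To show the regulatory sequence in front of genes that fell together, RefSeq promoter windows (GRCm38.p6) of 250 bases before the start were searched on both strands for TAATTA, the core bound by LIM-homeodomain proteins such as Lhx2, and for CCCNNGGGA, the core of the O/E site bound by Ebf proteins. Of the 119 lower genes, 95 had a window. TAATTA was found in 8 of them (8.42%) and in 5.65% of all 27025 gene symbols with a window, and CCCNNGGGA in 9 (9.47%) and in 6.45%. A gene counted if any of its windows held a match, so genes with several starts had more chances to match. Windows of Olfr536, the lower gene with the smallest p, and of Slc17a6, Ano2 and Umodl1, called genes of the mature neuron list that hold a match, are printed here, with the match in capitals. A gene with several starts is shown at 1 that holds a match, and in all 4 genes that RefSeq start lies inside the gene as GENCODE annotates it.
Olfr536 (chr7:140507319-140507568, minus strand): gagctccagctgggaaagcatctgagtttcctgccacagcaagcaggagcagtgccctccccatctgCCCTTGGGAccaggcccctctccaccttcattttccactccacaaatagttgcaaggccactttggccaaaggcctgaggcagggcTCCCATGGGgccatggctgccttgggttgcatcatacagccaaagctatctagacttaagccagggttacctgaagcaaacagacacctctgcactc
Slc17a6 (chr7:51624387-51624636, plus strand): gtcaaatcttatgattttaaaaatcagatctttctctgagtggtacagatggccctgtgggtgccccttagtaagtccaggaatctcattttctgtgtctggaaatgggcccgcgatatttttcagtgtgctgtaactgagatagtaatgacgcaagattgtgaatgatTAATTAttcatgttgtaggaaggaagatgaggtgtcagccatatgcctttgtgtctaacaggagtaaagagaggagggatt
Ano2 (chr6:125710938-125711187, plus strand): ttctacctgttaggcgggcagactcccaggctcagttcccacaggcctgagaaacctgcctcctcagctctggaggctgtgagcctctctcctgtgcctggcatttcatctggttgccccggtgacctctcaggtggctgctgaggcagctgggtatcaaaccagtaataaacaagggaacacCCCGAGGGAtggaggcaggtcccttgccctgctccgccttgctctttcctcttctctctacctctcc
Umodl1 (chr17:30954433-30954682, plus strand): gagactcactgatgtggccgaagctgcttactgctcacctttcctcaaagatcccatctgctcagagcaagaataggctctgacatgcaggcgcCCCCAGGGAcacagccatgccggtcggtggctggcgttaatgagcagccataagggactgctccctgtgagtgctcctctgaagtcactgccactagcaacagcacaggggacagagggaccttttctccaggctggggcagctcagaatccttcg
Olfr536 held 2 O/E core matches, 1 on each strand as read, Slc17a6 held 1 TAATTA match, and Ano2 and Umodl1 held 1 O/E core match each. These are matches of letters and not binding sites, and no test of the shares was made.

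Odorant receptor genes, each at a low level, lay mostly below 0 in log2 fold change, and a few passed the test. Of 1106 counted, 922 were tested, and 28 were lower (3.04% beside 0.537%) and none higher. Their median log2 fold change was −0.57, 736 (79.8%) were fitted below 0 beside 48.8% of all genes, and in 201 (21.8%) the on libraries lay below the off libraries beside 7.26% of all genes. The number lower was 2 without on replicate 2, 11 without on replicate 3 and 7 without off replicate 3, with medians from −0.87 to −0.41. Near-identical receptor genes can share or lose reads, so single receptors are uncertain.

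Olfr536 (chr7:140500849-140507396, minus strand) had the smallest p among them. It had 11.9, 4.74 and 6.45 CPM in the on libraries and 37, 29.2 and 35.5 CPM in the off libraries, beside 41.7 and 30.4 CPM in control (log2 fold change −2.3, SE 0.33, adjusted p = 2.58e-05). All 3 on libraries lay well below the lowest off and control libraries, and on replicate 1 was the highest of them. The 5 largest falls among receptors were Olfr212 (−2.93), Olfr1347 (−2.82), Olfr741 (−2.71), Olfr722 (−2.61) and Olfr263 (−2.52). Olfr741, for example, had 0.627, 0.711 and 1.53 CPM on and 5.87, 6.2 and 7.71 CPM off, so these folds rest on few counts. Olfr188-ps1 (−2.17), Olfr1192-ps1 (−1.95) and Olfr1326-ps1 (−1.79), pseudogenes by their symbols, were lower too. GENCODE annotates Olfr188-ps1 as a pseudogene, but Olfr1192-ps1 and Olfr1326-ps1 as protein coding. Of 55 receptor genes with pseudogene symbols tested these were the 3 called (5.45% beside 0.537% of all genes). Of the 6 fits that each left out a library, Olfr188-ps1 was called in 4, Olfr1192-ps1 in 3 and Olfr1326-ps1 in 1.

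The family's share of all gene counts was 0.182, 0.126 and 0.133% in the on libraries and 0.236, 0.223 and 0.293% in the off libraries, without overlap. In on replicate 1 the 95% Wilson interval, which covers counting error only, was 0.176% to 0.187%. The means were 0.147 ± 0.0302% (SD, n = 3) and 0.251 ± 0.0374% (SD, n = 3), and the exact 2-sided permutation test gave p = 0.1, the smallest possible. This separation depended on the satellite-like genes in the denominator. Without them the shares were 0.321, 0.141 and 0.159% on and 0.297, 0.237 and 0.319% off, the groups overlapped through on replicate 1, and the exact permutation p was 0.4. With on replicate 1 left out as well, the on libraries again lay below the off libraries, by 0.135 percentage points. On replicate 1 was also high in vomeronasal V1R receptor genes, a family used in another organ, which summed to 302, 97.4 and 107 CPM in the on libraries and 132, 81.3 and 70.6 CPM in the off libraries. The part of that library's makeup in its receptor share was not tested. The number of receptor genes with at least 1 count was 970, 1000 and 990 on and 1047, 1060 and 1069 off. The on libraries held 2.23, 4.31 and 3.44 M gene counts and the off libraries 4.27, 5.21 and 4.95 M.

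The median lay lower among receptors with higher levels. In 4 equal groups by mean level, from lowest to highest, the median log2 fold changes were −0.28, −0.52, −0.57 and −0.77, and the shares with on libraries below off libraries were 11.7%, 16.5%, 23.9% and 35.1%. The called genes were 0, 0, 5 and 23 in these groups, and genes with few counts are measured less precisely. The 111 class I receptors tested, in the cluster at chr7:102476579-105369355, had a median of −0.66 with 2 lower, and the 811 others a median of −0.55 with 26 lower. Of all genes tested 0.537% were lower. The on libraries lay below the off libraries in 29.7% of the class I receptors and 20.7% of the others, beside 7.26% of all genes. Across the 11 chromosomes with at least 20 receptors tested the median ran from −1.04 (chromosome 16) to −0.43 (chromosome 6). Trace amine-associated receptors, a small family used by other sensory neurons of the same epithelium, were at very low levels: all 7 tested were fitted below 0 with a median of −1.58, and none was called. Their summed level over 14 genes was 8.78, 4.5 and 4.3 CPM on and 13.8, 9.04 and 13.9 CPM off, without overlap.

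Some genes of axon guidance and sorting fell. Of 28, 4 were lower (14.3% beside 0.537% of all genes) and none higher, and in 8 (28.6% beside 7.26%) the on libraries lay below the off libraries. The 4 were Kirrel2, described above, and 3 parts of the semaphorin receptor. Nrp1, the neuropilin that binds Sema3a, had 66.5, 91.7 and 76.7 CPM on and 105, 125 and 153 CPM off (log2 fold change −0.69, SE 0.16, adjusted p = 0.0178). The plexin Plxna3 had 39.5, 50.7 and 39.9 CPM on and 60.5, 81.7 and 95.1 CPM off (log2 fold change −0.85, SE 0.19, adjusted p = 0.0122), and Plxna4 had 60.2, 56.6 and 58.6 CPM on and 71, 94.8 and 130.0 CPM off (log2 fold change −0.76, SE 0.18, adjusted p = 0.0304). In all of them the groups did not overlap, and off replicate 3 was the highest library. Nrp2 (−0.20, adjusted p = 0.927) and the ligand Sema3a (0.08, adjusted p = 1.0) were not called. The calls on these 3 receptors were lost in part when libraries were left out, with adjusted p up to 0.378 for Nrp1, 0.243 for Plxna3 and 0.761 for Plxna4. Among 57 clustered protocadherins, surface molecules by which neurites recognise each other, 48 were fitted below 0 (84.2% beside 48.8% of all genes) and 1 was lower (1.75% beside 0.537%), Pcdhb1, with 61.5, 49 and 63.5 CPM on and 102, 101 and 131 CPM off (log2 fold change −0.95, SE 0.23, adjusted p = 0.0276).

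Apart from Fzd1, 1 gene on the Wnt lists was called, Nfatc1. None of the 16 other Frizzled genes and Wnt co-receptors tested was called, and their median was −0.02. Per length, Fzd3 had the highest mean of the other Frizzled genes, with 2.66, 6.88 and 6.05 TPM in the on libraries and 5.26, 10.6 and 10.1 TPM in the off libraries. Next came Fzd8 with 3.51, 6.3 and 5.35 TPM on and 4.89, 6.54 and 7.22 TPM off, and Fzd6 with 1.75, 6.45 and 5.74 TPM on and 3.8, 8.07 and 5.81 TPM off, an order of neighbours that overlapped. On the CPM scale Fzd8 (54, 51.2 and 49.7 on, 46.7, 43.2 and 47.4 off) and the muscle kinase gene Musk (3.14, 4.03 and 3.68 on, 2.04, 1.77 and 1.16 off), listed for its Frizzled-like domain, had on libraries above off libraries without a call. Of the 16 genes 2 had this order (12.5% beside 4.99% of all genes) and 0 the reverse (7.26% of all genes).

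Of 14 transcriptional targets of beta-catenin tested, 0 were called, with a median of −0.01. Axin2, the feedback inhibitor most often used as a readout, had 19.5, 21.8 and 19.9 CPM on and 18.6, 22.9 and 25.3 CPM off, and the groups overlapped (log2 fold change −0.12, SE 0.17, adjusted p = 1.0). Lef1, a partner of beta-catenin on DNA, had 6.9, 7.82 and 9.82 CPM on and 4.6, 5.49 and 3.47 CPM off (log2 fold change 0.87, SE 0.44, adjusted p = 0.756), and the growth regulator Myc 8.78, 13.5 and 7.98 CPM on and 7.91, 6.91 and 5.59 CPM off (log2 fold change 0.62, SE 0.26, adjusted p = 0.575). In both the on libraries lay above the off libraries. In Apcdd1, a membrane-bound Wnt inhibitor, they lay below, with 11.9, 13.7 and 12.9 CPM on and 21.2, 23 and 18.7 CPM off (log2 fold change −0.69, SE 0.32, adjusted p = 0.672). Of the 14 targets, 2 had on libraries above off libraries (14.3% beside 4.99% of all genes) and 1 had them below (7.14% beside 7.26%). None of the 13 ligands, 17 secreted modulators, 20 cytoplasmic components or 17 planar polarity genes tested was called, with medians of 0.21, 0.01, 0.00 and −0.03. In the calcium branch 1 of 17 was lower (5.88% beside 0.537% of all genes). This was Nfatc1, a calcineurin-regulated transcription factor, with 20.7, 19 and 18.1 CPM on and 31.9, 30.7 and 37.4 CPM off (log2 fold change −0.81, SE 0.17, adjusted p = 0.00942). It was called in 3 of the 6 fits that each left out a library, with adjusted p by edgeR's test up to 0.148.

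Markers of other cell types of the epithelium gave no call. None of 15 immature neuron genes, 15 progenitor genes, 13 genes of the supporting sustentacular cells or 10 of the horizontal basal stem cells was called, with medians of −0.10, −0.08, −0.03 and −0.02. Summed levels overlapped between the groups in all 4: 2641 to 2857 CPM on and 2594 to 3231 CPM off for immature neurons, and 1351 to 1498 and 1265 to 1532 CPM for progenitors. The 17 lists of glands, microvillar and respiratory cells, glia, immune and blood cells, bone, cartilage, muscle, bulb, vessel, mesenchyme, skin and vomeronasal organ also held no called gene, and Trpc2, the channel of vomeronasal neurons, was at 0 in all 6 libraries. The medians of the 17 ran from −0.66 (MHC class II, 7 genes tested) to 0.83 (lymphocytes, 9 genes tested), and the summed levels of on and off libraries overlapped in each. Of 21 genes tied to odorant receptor choice none was called, with a median of −0.17. Lmo4, a LIM-only cofactor that competes for the partner of Lhx2, had 90.3, 93.6 and 96.1 CPM on and 75.6, 75 and 65.4 CPM off, without overlap. It was not called (log2 fold change 0.38, SE 0.17, adjusted p = 0.647), and its direction turned to −0.14 on log2(TPM + 1) and on log2(TPM + 0.1), where the median of all genes lay at −0.27 and −0.45.

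**Figure D4:**
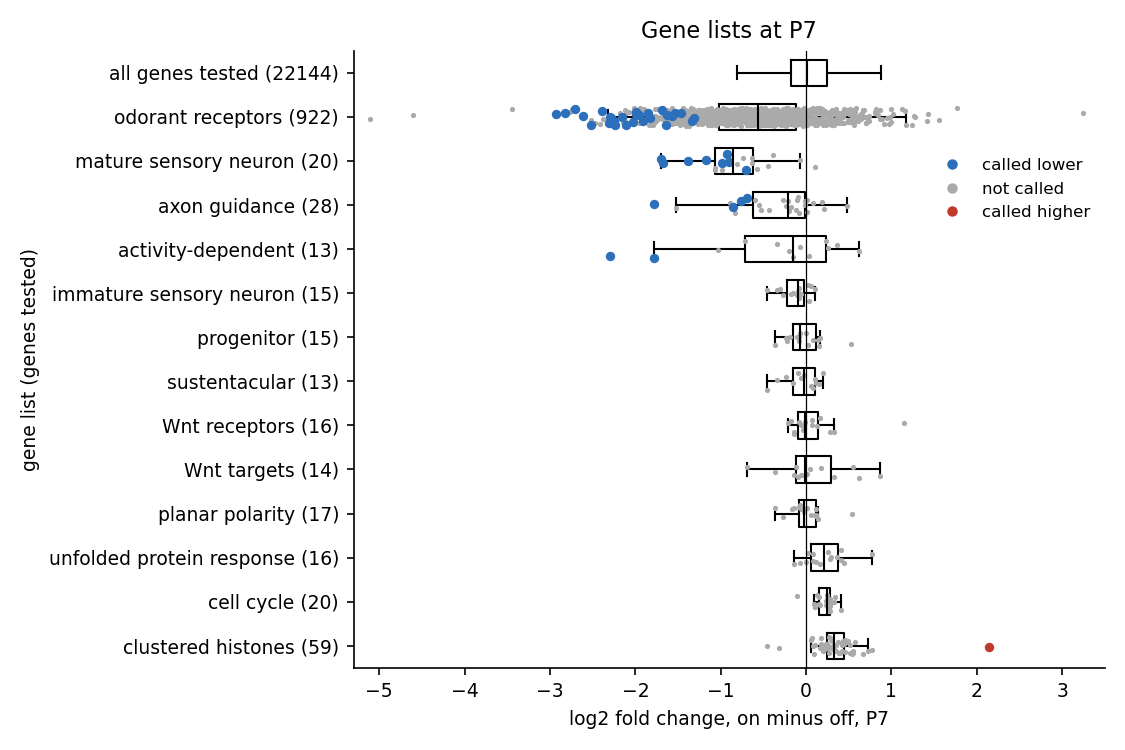
Log2 fold change, on minus off at P7, of the genes tested in each list, with the number tested in brackets. Points are genes and the bar is the list's median. The lists of mature neurons (−0.86) and odorant receptors (−0.57) lie below 0 while the Wnt lists centre near it.

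Apart from Fzd1, 4 genes were higher. Hist1h4n, a histone H4 gene, had 3.14, 2.84 and 5.83 CPM on and 1.02, 0.886 and 0.771 CPM off (log2 fold change 2.14, SE 0.54, adjusted p = 0.0418), and the call was lost whichever library was left out. Ddah1, which breaks down methylated arginine, had 8.16, 11.6 and 9.82 CPM on and 5.36, 5.14 and 3.86 CPM off (log2 fold change 1.09, SE 0.26, adjusted p = 0.0238). Fancd2, a protein of DNA crosslink repair whose exons overlap an antisense gene, had 26.4, 22.3 and 21.2 CPM on and 17.1, 13.8 and 10.4 CPM off (log2 fold change 0.75, SE 0.18, adjusted p = 0.0341). The groups did not overlap in any of the 3, and of the 6 fits that each left out a library Ddah1 was called in 2 and Fancd2 in 1. The other, Gm20628, is a predicted gene named because it completes the 5. It lies across histone genes, whose reads cannot be told apart where counting did not use strand, and had 11.9, 13.3 and 9.51 CPM on and 5.62, 5.14 and 4.63 CPM off (log2 fold change 1.18, SE 0.30, adjusted p = 0.0393). Of 59 histone genes tested, 24 had on libraries above off libraries (40.7% beside 4.99% of all genes), with a median of 0.33, but only Hist1h4n was called. On log2(TPM + 1) Hist1h4n, Ddah1 and Fancd2 had log2 fold changes of 0.16, 0.25 and 0.01 and were not called, while the median over all genes lay at −0.27.

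Whether DOX alone moved the same genes was read from mice without the tetO transgene. In the control pups at P7, without DOX minus with DOX, 0 of the 119 genes were called higher (2.08% of all genes) and 2 were called lower (1.73%), Ttll6 and Snph, named after their values were seen. The median over the 119 was 0.01. In that comparison as a whole 843 genes were called (3.81%), but 15, 16, 210 and 232 without control replicate 1 or 2 or control DOX replicate 1 or 3. The control groups differed in more than DOX: satellite-like genes took 18 and 20.6% of gene counts without DOX and 0.132, 3.37 and 0.702% with it, and Omp differed as given above. In 118 of the 119 both control libraries without DOX lay above all 3 on libraries, whose low values had also chosen the genes (13.2% of all genes). The mean of these 2 controls lay below the lowest off library in 18 of the 119 (15.1% beside 24.3% of all genes) and above the highest in 20 (16.8% beside 26.8%).

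The change with the transgene was then tested against the change with DOX in control, as the difference of the log2 fold changes. It was called in 32 genes (0.145%), 6 higher (0.0271%) and 26 lower (0.117%), with 2754 at an unadjusted p below 0.05. The count was 61, 6 and 16 without on replicate 1, 2 and 3, 12 without off replicate 3, 7 and 19 without control replicate 1 and 2, and 113, 13 and 20 without control DOX replicate 1, 2 and 3. Stoml3 passed this test (difference −1.9, SE 0.44, adjusted p = 0.0475), with 426, 284 and 331 CPM in the control DOX libraries. So did Olfr536 (difference −2.31, SE 0.44, adjusted p = 0.00478), Necab1 (difference −1.77, SE 0.30, adjusted p = 9.69e-04), Fam217a (difference −1.33, SE 0.29, adjusted p = 0.026), Olfr188-ps1 (difference −2.69, SE 0.57, adjusted p = 0.0192) and Olfr1192-ps1 (difference −2.57, SE 0.59, adjusted p = 0.0377). Fzd1 was higher by 4.27 (SE 0.69, adjusted p = 0.000327). S100a5 (difference −2.22, SE 0.67, adjusted p = 0.142) and Kirrel2 (difference −1.67, SE 0.48, adjusted p = 0.116) had differences near their falls but were not called. In 4 other named genes the on and off groups overlapped and the 2 control groups did not. For Omp (difference 4.29, SE 0.58, adjusted p = 7.57e-06) the levels are given above. Edn2, the peptide endothelin 2 (difference 3.5, SE 0.64, adjusted p = 0.00301), had 45.1, 27.9 and 10.6 CPM in control DOX beside 3.54 and 4.18 in control. Gm15459 (difference −6.57, SE 0.37, adjusted p = 9.99e-21) had 2.19, 1.78 and 1.76 CPM in control DOX beside 209 and 215 in control, 254, 325 and 369 on and 284, 278 and 270.0 off. The predicted gene Gm15920 (difference −5.56, SE 0.87, adjusted p = 2.24e-04) was likewise low in control DOX, at 0.47, 0.198 and 0.147 CPM.

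The genes lower at P7 were followed into other libraries, at P10 and P14, that share no sample with the P7 comparison. At P10, 118 of the 119 were fitted below 0 (52.5% of all genes), and 80 were themselves called lower (1.39% of all genes), which is 67.2% of the P7 genes and 26.0% of the 308 lower at P10. At P14, where the on group held 2 libraries, 118 were fitted below 0 (49.9% of all genes), and 25 were called lower (0.307% of all genes), 21% of the P7 genes and 36.8% of the 68 lower at P14. The medians were −1.07, −0.87 and −0.79 at P7, P10 and P14. Of the 31 with odorant receptor symbols 28 were called lower at P10, and of the 88 others 52.

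S100a5 fell at P10 (log2 fold change −3.1, adjusted p = 2.44e-05) and at P14 (log2 fold change −2.16, adjusted p = 0.0293). Stoml3 fell at P10 (log2 fold change −1.41, adjusted p = 0.00358) and P14 (log2 fold change −1.41, adjusted p = 0.0385), and so did Necab1 (log2 fold change −1.42, adjusted p = 9.96e-06 and log2 fold change −1.62, adjusted p = 5.10e-05). Cnga4 was at the threshold at P10 (log2 fold change −0.85, adjusted p = 0.0498) and was not called at P14 (log2 fold change −0.75, adjusted p = 0.362). The guidance receptors Nrp1 (log2 fold change −0.73, adjusted p = 0.00358) and Plxna3 (log2 fold change −1.04, adjusted p = 3.19e-04) were lower at P10 and were not called at P14 (log2 fold change −0.39, adjusted p = 0.634 and log2 fold change −0.75, adjusted p = 0.11). Plxna4 was not called at P10 (log2 fold change −0.56, adjusted p = 0.0954) or P14 (log2 fold change −0.16, adjusted p = 1.0). Of the 5 genes that rose at P7, Fzd1 was called higher at P10 as well, and Ddah1 (log2 fold change 0.11, adjusted p = 0.937), Fancd2 (log2 fold change −0.18, adjusted p = 0.781), Hist1h4n (log2 fold change 0.62, adjusted p = 0.684) and Gm20628 (log2 fold change 0.83, adjusted p = 0.137) were not called there. Lmo4, not called at P7, was higher at P10 (log2 fold change 1.03, adjusted p = 9.46e-05) and P14 (log2 fold change 0.85, adjusted p = 0.014), where 0.384% and 0.0677% of all genes were called higher.

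**Figure D5:**
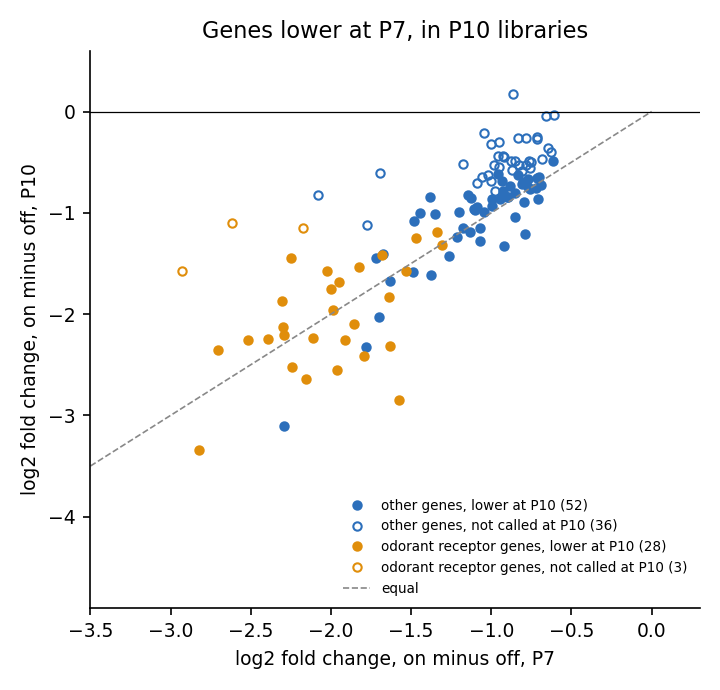
Log2 fold change, on minus off, of the 119 genes lower at P7 (horizontal axis) and in the separate P10 libraries (vertical axis), with odorant receptor symbols and other genes marked and a dashed line of equal values. Of the 119 points 118 lie below 0 on the P10 axis, and 80 of them were called lower there.

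A direct test of the P7 change against the mean of the P10 and P14 changes called 0 genes by edgeR's quasi-likelihood test, with 1194 at an unadjusted p below 0.05. DESeq2 called 2 and limma on log2(TPM + 1) 0. Among the 6 genes with the smallest p was Rpl26, a ribosomal protein gene with many processed copies (log2 difference 2.68, adjusted p = 0.134), at 328, 322 and 409 CPM on and 183, 267 and 133 CPM off at P7. Its 2 control libraries were themselves far apart, at 24 and 229 CPM. The others were Siah1b, a ubiquitin ligase gene (log2 difference −1.36, adjusted p = 0.134), Trib3, a pseudokinase of the stress response (log2 difference −0.99, adjusted p = 0.135), Fam216b (log2 difference 1.31, adjusted p = 0.148), 4631405K08Rik (log2 difference 1.51, adjusted p = 0.203) and Gm43305, which had 0 counts in all 3 off libraries at P7 but 2.33, 4.53 and 6.21 TPM there in the authors' separate TPM table. Fzd1 itself rose by 5.65 at P10 and 5.73 at P14, beside 4.53 at P7 (log2 difference −1.16, adjusted p = 0.92).

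Most of the genes that were lower with the transgene on rose with age in control mice. In control mice without DOX, P14 against P0, 107 of the 119 were called higher (23.5% of all genes) and 0 lower (22.2% of all genes), with a median log2 fold change of 1.42. S100a5 rose by 2.49 over that time, Stoml3 by 2.58, Cnga4 by 2.2, Scgn by 3.14 and Olfr536 by 3.05. Nrp1 and Pcsk1, at −0.25 and 0.29, were not among those with a large rise. Of the genes higher with the transgene on, Ddah1 changed by −1.75 and Fancd2 by −1.43 over the same time.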

How the data were processed

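Total RNA of olfactory epithelium was extracted with TRIzol and made into libraries with the TruSeq stranded kit and Ribo-Zero Gold, per the labels' protocols. Per the submitters' processing notes, the authors used bcl2fastq 2.18, STAR 2.6.1c, RSEM (version not given in the sources used here) and the build mm10. The deposited count table holds whole reads per gene, and whether counting used strand is not given in the sources used here. The deposited TPM table holds the authors' RSEM values, scaled for gene length and library.

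The members of the comparison, the gene lists and the rule for named genes were chosen with earlier results of these data known. Counts were fitted in R 4.3.3 with edgeR 4.0.16 (filterByExpr, TMM scaling, quasi-likelihood, 1 term per group) over all 72 libraries in 25 groups, which share the estimate of the spread. The 3 P3 off libraries carry 1 title ID, and 1 P10 and 1 P14 off library share another. The labels do not say what the ID marks, and these libraries were counted as separate replicates. Of 54532 genes 22144 were tested. Adjusted p-values are Benjamini-Hochberg values over all genes tested. Read totals outside genes were left out. Of these IDs 54409 (99.77%) matched GENCODE M21, which gave positions. Replicates were compared first: Pearson's r of each pair was 0.953 to 0.983 and the chi-square of the counts per degree of freedom 6.39 to 58.5, so no pair agreed within sampling noise.

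Named genes are Fzd1, Omp and Lmo4, the 15 largest rises and falls among called genes (average log2 CPM over 0, no overlap between groups, no predicted or clone name), the 5 largest falls among odorant receptors, up to 4 called members of each list by smallest p, and the 6 smallest p of each difference of differences. Where fewer genes passed, all that did are named. Members of 4 lists (Wnt receptors, Wnt targets, mature neurons, satellite-like genes) are described whether called or not. On simulated counts of 21478 genes, edgeR called 11.9%, 53.7% and 77.3% of genes changed by 0.5, 1 and 2 on the log2 scale at P7, with 4 unchanged genes called.

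The alternatives were DESeq2 1.42.0, edgeR with DESeq2's size factors, no filter, a mean CPM of at least 1, only the groups compared, limma 3.58.1 on log2(TPM + 1) and log2(TPM + 0.1), no satellite-like genes, sex as a covariate, and each library left out. The satellite-like share as a covariate, and its removal with a library left out, were added after seeing the data.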

Additional observations from a re-analysis of the deposited data

Results flagged for a closer look

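In 11 named genes, of 32 genes called in all, the change between no DOX and DOX at P7 differed between the mice with the transgene and the control mice, by edgeR's quasi-likelihood test of the difference of log2 fold changes. The difference was 4.27 for Fzd1, −1.90 for Stoml3, −2.31 for Olfr536, −1.77 for Necab1 and −1.33 for Fam217a. It was −2.69 for Olfr188-ps1 and −2.57 for Olfr1192-ps1, pseudogenes by their symbols, whose reads can be shared with other receptors. It was 4.29 for Omp, 3.5 for Edn2, −6.57 for Gm15459 and −5.56 for Gm15920, and in Omp, Gm15459 and Gm15920 the control DOX libraries stood apart from the other 3 groups. Those of Edn2 (45.1, 27.9 and 10.6 CPM) overlapped the on libraries (7.53, 14 and 5.52 CPM). Of the 11, the difference of Fzd1, Omp, Necab1, Gm15459 and Gm15920 was called whichever of 11 libraries was left out.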

How the results depend on the processing

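The 124 genes called on against off became 205 with no filter (52 higher, 153 lower), 62 in a fit on only the groups compared, 56 by limma on log2(TPM + 1) and 72 without satellite-like genes, and 23 to 166 when each library was left out. The 8 lower genes of mature neurons became 4 by limma on log2(TPM + 1) and 5 without satellite-like genes (0 to 9 with a library left out). The 28 lower odorant receptors became 7 in a fit on only the groups compared, where 303 were tested, and 13 and 43 by limma with pseudocounts of 1 and 0.1 (2 to 25 with a library left out). The other settings kept these counts within 1.5 times. The 32 genes whose change differed from control DOX became 80 with DESeq2's size factors, 138 by DESeq2, 415 with no filter, 67 with a mean CPM of at least 1, 79 with only the groups compared, 14 and 9 by limma and 21 with the satellite-like share as a covariate (6 to 113 with a library left out). The 0 genes whose change at P7 differed from P10 and P14 became 2 by DESeq2, 95 with no filter, 1 with only the groups compared, 2 with sex and 1 with the satellite-like share (0 with any library left out). The 843 genes of control without against with DOX became 2287 with no filter, 127 and 25 by limma, 1532 with sex and 40 with the satellite-like share (15 to 748 with a library left out). The cause of these moves was not tested.

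The Fzd1 difference stayed between 3.71 and 4.61 on the log2 scale, with 4.31 to 4.61 when a library was left out. The odorant receptor share differed by −0.121 to −0.0828 percentage points with a library left out, and by −0.135 to −0.0445 without satellite-like genes too. Directions turned for Omp (−0.47 and −0.58) and Lmo4 (−0.14 and −0.14) on log2(TPM + 1) and log2(TPM + 0.1), where the median of all genes moved to −0.27 and −0.45, for Omp with a library left out (−0.96 to 0.50), and for Gm43305 in the difference between ages (−0.12 and −0.17 by limma). Where an arm is left with 2 libraries the fit borrows its spread from the other groups. Of the single values of named genes on against off, 314 kept their direction and side of the threshold under the other settings, 58 lost the call and 4 turned, and with a library left out 134, 92 and 2.

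No paired analysis was possible because the labels carry no replicate numbers. At 2.23 M to 5.21 M gene counts a library, genes of about 1 CPM rest on a few reads.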

Other observations

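Genes of the unfolded protein response, by which cells handle misfolded protein in the endoplasmic reticulum, leaned upwards without a call. Of 16 tested, 3 were fitted below 0, with a median log2 fold change of 0.21, and in 6 the on libraries lay above the off libraries (37.5% beside 4.99% of all genes). Hspa5, the main chaperone of the reticulum, had 641, 818 and 826 CPM on and 619, 545 and 512 CPM off (log2 fold change 0.45, SE 0.22, adjusted p = 0.732). Sdf2l1, a component of its chaperone complex, had 29.5, 36.5 and 31.6 CPM on and 20.4, 17.5 and 19.9 CPM off (log2 fold change 0.78, SE 0.25, adjusted p = 0.227). The list's summed level was 3052, 3729 and 3507 CPM on and 2945, 2987 and 2913 CPM off. It was 3314, 3863 and 3369 CPM in the control DOX libraries, which overlapped the on libraries. In the control libraries without DOX it was 2487 and 2562 CPM, below all on and off libraries.

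Calr4, a calreticulin family gene named after its values were seen, had 16.9, 13.3 and 14.1 CPM on and 5.36, 4.96 and 3.86 CPM off without overlap, and was not called (log2 fold change 1.62, SE 0.59, adjusted p = 0.372). Insm1, a transcription factor of dividing neuronal progenitors, likewise chosen after its values were seen, had 61.5, 55.2 and 58.3 CPM on and 29.1, 40.4 and 50.1 CPM off (log2 fold change 0.53, SE 0.21, adjusted p = 0.49), with control at 51 and 53.1 CPM, between the off and the on libraries.

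Vomeronasal receptor genes, which belong to another organ, had medians of 0.79 (V1R, 83 tested) and 0.78 (V2R, 70 tested), and none was called. The summed level of each family overlapped between the on and off libraries.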
